A study of Mus musculus with 9 samples.

Results

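The variable segments of the T cell receptor were taken as every gene of the deposited expression table whose symbol begins with Trav, Trbv, Trgv or Trdv followed by a number. They numbered 170 of the 48709 genes in the table: 128 alpha (Trav), 35 beta (Trbv), 1 gamma (Trgv2) and 6 delta (Trdv) segments. All 170 symbols were found in GENCODE M21, on mouse chromosomes 14 (alpha and delta), 6 (beta) and 13 (gamma), and 34 of them are classed there as pseudogenes.

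The study sequenced RNA of mouse CD8+ T cells in 3 groups of 3 libraries, 9 in all. The control cells received no OVA peptide, a fragment of ovalbumin used as a model antigen. The OVA group received the peptide, and the OVA plus citraconate group received the peptide together with citraconate, an isomer of the immune metabolite itaconate. No source used here gives the mouse strain, the doses or the times, and no group had citraconate without peptide. For 8 libraries the extraction notes speak of PAS-T cells, without saying what those are, but OVA-stimulated T cells in the first replicate with citraconate. Whether replicates came from separate cultures or mice is not stated either, so the spread that p-values are set against is that of these samples and may be technical.

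Each T cell joins 1 variable segment to a joining segment (with a diversity segment in beta and delta chains) and a constant segment. The variable segment encodes a part of the region of the receptor that contacts antigen. In a mixed population many segments are in use, while in a clone or a receptor-transgenic line 1 alpha and 1 beta segment make up most of the transcripts. OT-I cells, a transgenic line widely used with OVA peptide, carry a V alpha 2 chain from the Trav14 family and a V beta 5 chain from the Trbv12 family. Whether the cells here came from such a line is not stated in the labels.

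Values are in TPM, transcripts of a gene per 1000000 transcripts of its library, corrected for length, and a value written with ± is a group mean with its SD (n = 3 libraries). Whole reads worked back from the table numbered 14754470 to 17384330 per library, of which 2614 to 8145 fell on variable segments. For a variable segment 1 recovered read was worth 0.251 to 0.997 TPM, so values near 1 TPM rest on a few reads. Recovered reads are the smallest whole numbers in proportion to a gene's values, so counts with a shared factor come out too low. The upper end is Trav6n-5 in OVA plus citraconate replicate 2, where 1 recovered read of Trav6-1 was worth 0.499 TPM, so it is probably too high. Of the 170 segments, 137 were above 0 in at least 1 library, 13 of these in 1 library only, and 33 were listed at 0 in all 9. A mean of 1 TPM in any group, the minimum for testing, was reached by 77 segments (63 Trav, 8 Trbv, Trgv2 and 5 Trdv). A mean of 10 TPM was reached by 18 and a mean of 100 TPM by 4: Trbv12-1, Trav14d-1, Trav14n-1 and Trgv2.

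The results turn on Trbv12-1 and on the pair Trav14d-1 and Trav14n-1, so the ends of their variable exons are shown beside their closest relevant copies. Each sequence is the last 180 bases of the variable exon, the end that joins the diversity or joining segment, read 5′ to 3′ on the coding strand from the GENCODE M21 transcripts (GRCm38 build). Capitals mark the bases that differ within each comparison: 18 between Trbv12-1 and Trbv12-2, and 6 in Trav14-1 against Trav14d-1.
Trbv12-1: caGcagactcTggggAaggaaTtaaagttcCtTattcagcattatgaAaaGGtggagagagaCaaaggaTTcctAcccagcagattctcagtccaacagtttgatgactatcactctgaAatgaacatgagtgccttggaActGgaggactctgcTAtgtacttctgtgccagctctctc
Trbv12-2: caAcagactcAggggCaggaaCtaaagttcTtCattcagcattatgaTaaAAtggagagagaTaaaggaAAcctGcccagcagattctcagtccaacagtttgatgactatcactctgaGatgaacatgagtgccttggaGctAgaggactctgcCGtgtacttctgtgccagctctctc
Trav14d-1: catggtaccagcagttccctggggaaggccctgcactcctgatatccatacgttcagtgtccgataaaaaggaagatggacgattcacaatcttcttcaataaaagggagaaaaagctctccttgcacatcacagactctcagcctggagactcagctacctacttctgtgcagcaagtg
Trav14-1: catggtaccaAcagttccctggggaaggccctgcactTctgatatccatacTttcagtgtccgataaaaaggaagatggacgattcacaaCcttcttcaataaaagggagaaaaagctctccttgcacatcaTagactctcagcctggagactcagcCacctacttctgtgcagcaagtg
Trav14n-1 was identical to Trav14d-1 over the whole variable exon (312 of 312 bases) and over the whole annotated transcript (415 of 415), so it is not printed again. Over their variable exons Trbv12-1 and Trbv12-2 matched at 261 of 293 bases (89.1%), and no stretch of 50 bases was shared. Reads of that length or longer that match without error can therefore be told apart between the 2 Trbv12 segments, but not between the 2 Trav14 copies. In the deposited values Trav14d-1 held 48.7% to 51.4% of the reads of the pair in every library, and the copies are treated below as 1 pair. Trav14d-1 matched Trav14-1 at 299 of 312 bases (95.8%) and shared 4 of its 263 windows of 50 bases with it.

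Trbv12-1 and the Trav14 pair together held 64.9% to 69.8% of all variable-segment TPM in the control libraries, 84.6% to 86.4% with OVA and 88.6% to 89.3% with OVA plus citraconate. Among beta segments Trbv12-1 took 91.8%, 90.8% and 93.3% in control replicates 1 to 3, and 99.3%, 99.0% and 99.0% with OVA. With OVA plus citraconate its share was 99.4%, 99.2% and 99.1%. The shares of the control libraries all lay below those of both peptide groups, and the shares of the peptide groups overlapped. The mean difference between OVA and control was 7.09 percentage points (exact two-sided permutation test, p = 0.1, the smallest that 3 against 3 libraries allow). Between OVA plus citraconate and control it was 7.23 points (exact permutation p = 0.1), and between OVA plus citraconate and OVA 0.134 points (exact permutation p = 0.4). These tests cannot pass 0.05 in this design.

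The pair took 63.5%, 65.3% and 66.0% of alpha-segment TPM in the control libraries, 74.7%, 81.3% and 73.9% with OVA, and 80.0%, 79.6% and 78.4% with OVA plus citraconate. Its share was thus lower in each control library than in each library given peptide, and the range of the OVA plus citraconate libraries lay inside that of the OVA libraries. The inverse Simpson number, which is 1 when a single segment holds all of a chain and rises as more segments share it evenly, was 4.50 to 4.83 for alpha segments in control. It was 3.0 to 3.62 with OVA and 3.11 to 3.23 with OVA plus citraconate, and since the identical pair counts as 2 segments it cannot come near 1. For beta segments it was 1.15 to 1.21 in control, 1.02 in all OVA libraries and 1.01 to 1.02 with OVA plus citraconate.

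**Figure D1:**
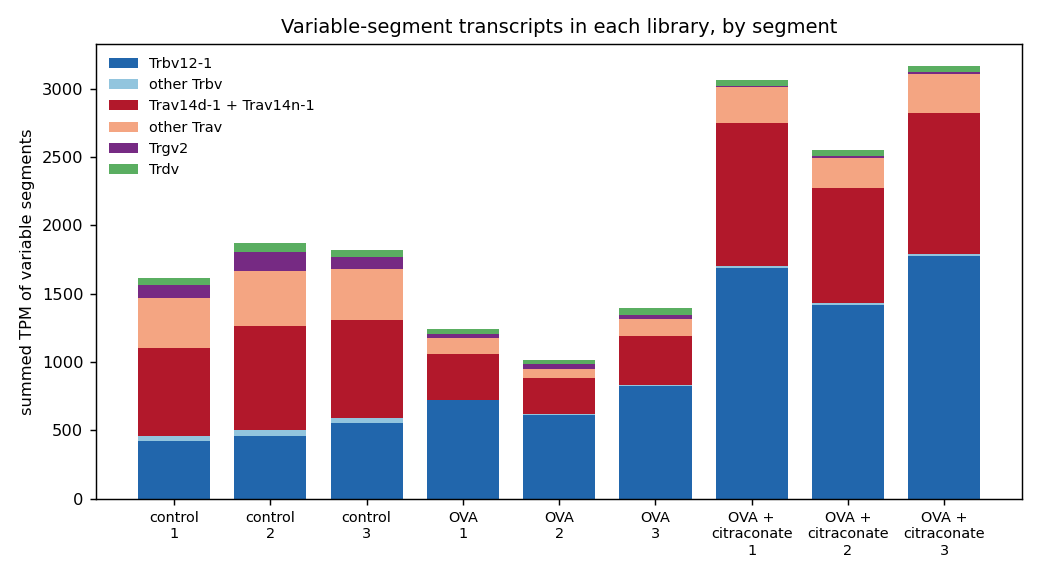
Summed TPM of all 170 variable segments in each of the 9 libraries (1 bar per library), divided into Trbv12-1, other beta segments, the Trav14d-1 and Trav14n-1 pair, other alpha segments, Trgv2 and delta segments. The total was 1616 to 1873 TPM in control, 1018 to 1399 with OVA and 2553 to 3170 with OVA plus citraconate, and the Trbv12-1 part was larger in every OVA library than in every control library although the total was smaller.

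Against all variable segments the balance between chains moved as well. Trbv12-1 held 24.5% to 30.3% of variable-segment TPM in control, 58.1% to 60.0% with OVA and 55.1% to 56.0% with OVA plus citraconate. The pair held 39.5% to 40.4%, 25.6% to 27.1% and 32.6% to 34.2% in the same order. Neither range overlapped between any 2 groups: the beta segment led with peptide, and the alpha pair led without it. All variable segments together made up 0.162% to 0.187% of the library in control, 0.102% to 0.140% with OVA and 0.255% to 0.317% with OVA plus citraconate. In RNA of bulk cells, fewer cells using a segment and less of its RNA per cell cannot be told apart.

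With OVA, 54 of the 77 tested segments were lower than in control (70.1%) and 2 were higher (2.6%), by limma at a Benjamini-Hochberg adjusted p under 0.05. Over all 11971 tested genes 39.8% were lower and 32.1% higher in that comparison. The segments that were higher were Trbv12-1 and Trdv4. Of the tested segments, 46 of 63 Trav, 3 of 8 Trbv, Trgv2 and 4 of 5 Trdv were lower. The median log2 change of the 77 segments was -1.26, beside -0.08 over all tested genes. Segments that reached the minimum of 1 TPM only in control, such as Trbv1 and Trbv12-2, could hardly be called higher with peptide. The split into lower and higher segments and the median, here and for OVA plus citraconate against control, are therefore partly set by that minimum.

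With OVA plus citraconate against OVA, 36 of the 77 were higher (46.8%) and 4 lower (5.19%), where 37.8% of all tested genes were higher and 21.2% lower. The lower ones were Trgv2, Trdv4, Trav12-1 and Trav9n-3. Trav9n-3 reached the minimum of 1 TPM only with OVA, and Trav2, among the higher ones, only with OVA plus citraconate. The split and the median of the segments are therefore partly set by that minimum here too. The median over all tested genes was itself shifted by 0.12 on the log2 scale in this comparison, and changes in it are given below relative to that median. On this basis the median change of the 77 segments was 0.62. The limma tests were of the unshifted change, before the median was subtracted, and their adjusted p-values belong to that change. Against control, OVA plus citraconate had 4 segments higher (5.19%; Trbv12-1, Trav14d-1, Trav14n-1 and Trdv4) and 19 lower (24.7%), and 54 did not pass the test. The shares over all tested genes were 33.1% higher and 26.3% lower, and the medians -0.39 for the segments and 0.04 for all genes. The comparisons share libraries, so their counts are not independent of each other. Changes are on the log2(TPM + 1) scale, which understates those of low genes.

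Trbv12-1, the leading beta segment in every library, rose with OVA and was higher again with citraconate. Its level was 423, 459 and 551 TPM in control replicates 1 to 3. It was 720.1, 611 and 825 TPM with OVA, and 1691, 1417 and 1775 TPM with OVA plus citraconate. No library of one group reached into the range of another. Group means were 478 ± 65.9, 719 ± 107 and 1628 ± 188 TPM (SD, n = 3), a ratio of 1.5 for OVA over control. The log2 change was 0.59 ± 0.13 (SE; limma, adjusted p = 0.00211). With OVA plus citraconate the mean was 2.27 times that of OVA. The log2 change was 1.18 ± 0.13 (limma, adjusted p = 5.11e-05), or 1.06 relative to the median gene. Against control the mean was 3.41 times as high, a log2 change of 1.77 ± 0.13 (limma, adjusted p = 2.09e-06). These values rest on 952 to 4466 reads per library, so counting error is small beside the spread between replicates.

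The Trav14 pair, the leading alpha segments, fell with OVA instead. Trav14d-1 stood at 321, 376 and 360.2 TPM in control, 166, 137 and 184 TPM with OVA, and 526, 433 and 503 TPM with OVA plus citraconate. Trav14n-1 stood at 318, 379.5 and 359.5 TPM, then 170.1, 132 and 174 TPM, then 523, 415 and 531 TPM. In both copies the OVA libraries were lowest and the citraconate libraries highest, with no overlap between groups. For Trav14d-1 the OVA mean was 0.460 of the control mean (log2 change -1.12 ± 0.11 SE; limma, adjusted p = 8.23e-06). With OVA plus citraconate against OVA its log2 change was 1.59 ± 0.11 (limma, adjusted p = 6.99e-06), or 1.46 relative to the median gene. The ratio of means was 3.0. Against control the mean with OVA plus citraconate was 1.38 times as high (log2 change 0.46 ± 0.11; limma, adjusted p = 0.00464). Trav14n-1 had log2 changes of -1.15, 1.5 (relative to the median gene) and 0.47 in the same comparisons, and as an identical copy it adds no separate evidence.

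**Figure D2:**
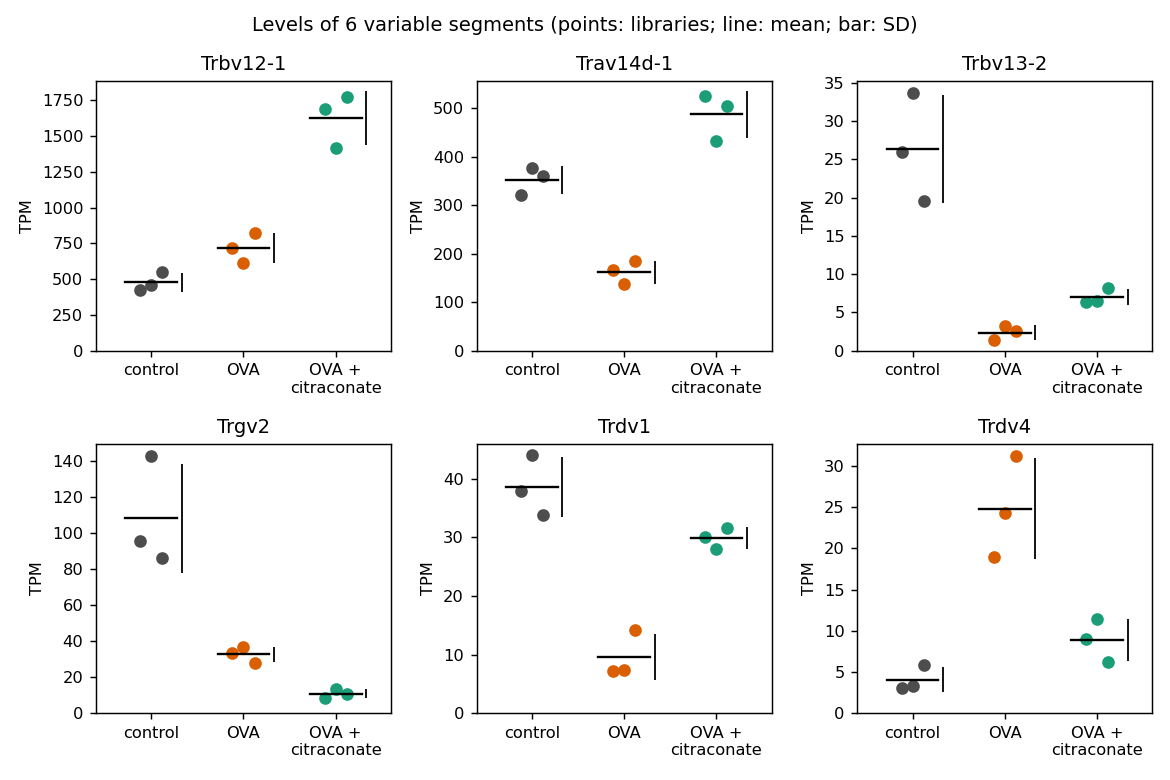
TPM of 6 variable segments in each library (points), with the group mean (line) and SD (bar) over 3 libraries. Trbv12-1 was highest with OVA plus citraconate (1417 to 1775 TPM), Trav14d-1, Trbv13-2 and Trdv1 were lowest with OVA, Trgv2 was lowest with OVA plus citraconate, and Trdv4 was highest with OVA (19.0 to 31.3 TPM).

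The 2 leading chains were next set against their constant segments, which every transcript of a chain carries whatever its variable segment. Trac, the alpha constant segment, had means of 980 ± 26.5, 379 ± 102 and 1047 ± 83.1 TPM in control, OVA and OVA plus citraconate. Trbc1 and Trbc2, the beta constant segments, summed to 2025 ± 95.8, 1533 ± 240.3 and 2996 ± 364 TPM. Relative to control, OVA thus had 0.387 of the alpha and 0.757 of the beta constant level. The ratio of beta to alpha constant segments was 1.99 to 2.13 in control, 3.8 to 4.83 with OVA and 2.71 to 2.94 with OVA plus citraconate.

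The ratio of Trbv12-1 to the beta constant segments was 0.221, 0.223 and 0.262 in the control libraries. It was 0.465, 0.475 and 0.467 with OVA and 0.522, 0.550 and 0.560 with OVA plus citraconate, and no 2 groups overlapped. The OVA mean was 1.99 times the control mean, while the step from OVA to OVA plus citraconate was a factor of 1.16. Between the peptide groups the beta constant segments themselves differed by a factor of 1.95 and Trbv12-1 by 2.27. For the alpha chain, the ratio of the pair to Trac was 0.662, 0.783 and 0.712 in control, 0.823, 1.01 and 0.773 with OVA, and 0.946, 0.890 and 0.957 with OVA plus citraconate. Here OVA overlapped both other groups, and only OVA plus citraconate and control were apart. With OVA the pair stood at 0.455 and Trac at 0.387 of the control mean.

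Trbv12-1 stood at 0.608 to 0.765 times the pair in control, 2.14 to 2.30 times with OVA and 1.61 to 1.72 times with OVA plus citraconate. Other alpha segments summed to 0.367 to 0.416 of Trac in control, 0.232 to 0.279 with OVA and 0.228 to 0.263 with OVA plus citraconate. The control libraries were above both peptide groups, which overlapped. Other beta segments made up 0.0203 ± 0.00207, 0.00436 ± 0.000761 and 0.00433 ± 0.000934 of the beta constant level in control, OVA and OVA plus citraconate.

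**Figure D3:**
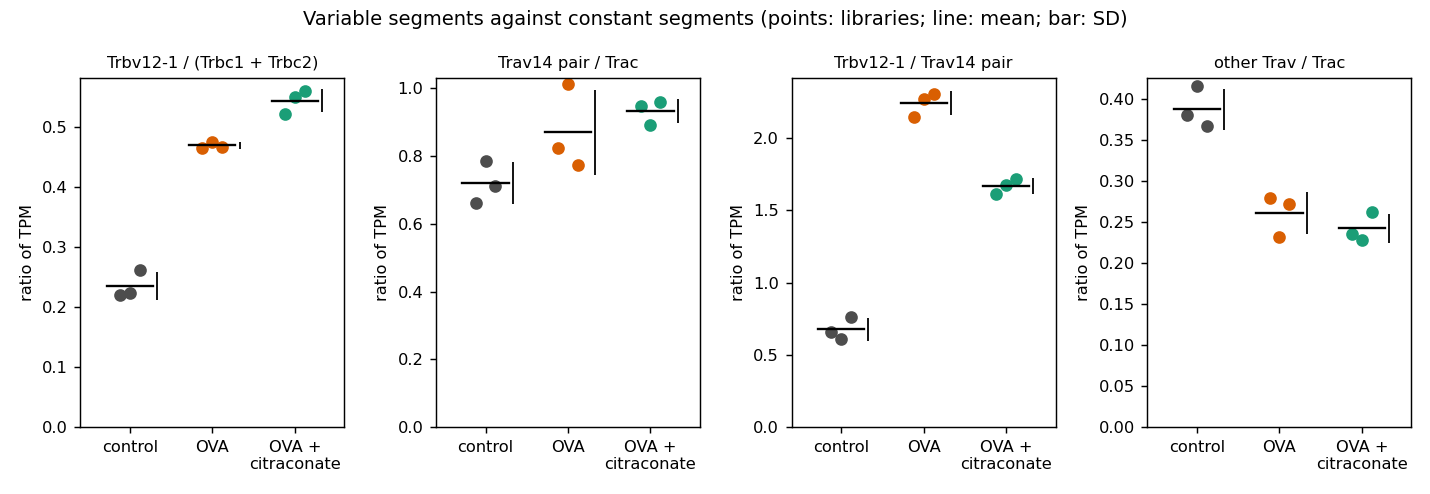
Ratios of TPM in each library (points), with group mean (line) and SD (bar): Trbv12-1 over Trbc1 plus Trbc2, the Trav14 pair over Trac, Trbv12-1 over the pair, and other alpha segments over Trac. The first ratio ran from 0.221 to 0.262 in control and from 0.465 to 0.560 in the peptide groups, while the second overlapped between OVA and each other group.

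The remaining beta segments were few. All 34 beta segments other than Trbv12-1 summed to 37.6, 46.6 and 39.3 TPM in control, 5.42, 5.95 and 8.73 TPM with OVA, and 10.6, 12.1 and 16.0 TPM with OVA plus citraconate. The order control, OVA plus citraconate, OVA held without overlap. Trbv13-2, a common beta segment of mouse T cells, was the highest of them at 25.9, 33.6 and 19.5 TPM in control. It stood at 1.35, 3.21 and 2.55 TPM with OVA, and 6.37, 6.45 and 8.19 TPM with OVA plus citraconate. It fell with OVA by 3.03 ± 0.23 on the log2 scale (limma, adjusted p = 1.39e-06), to 0.0900 of the control mean. With OVA plus citraconate it was 1.28 ± 0.23 higher than with OVA (limma, adjusted p = 0.000960), or 1.16 relative to the median gene. It remained 1.75 below control (limma, adjusted p = 0.000118). The OVA values rest on 3 to 7 reads per library.

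Trbv12-2, the close relative of Trbv12-1, stood at 4.04, 2.54 and 2.62 TPM in control and went the other way from it. With OVA it had 0 reads in replicates 1 and 2 (exact Poisson 95% upper limit 3.69 reads, counting error only) and 0.375 TPM in replicate 3. With OVA plus citraconate it stood at 1.3, 0 and 0.803 TPM. Its fall with OVA passed the test (log2 change -1.85; limma, adjusted p = 0.000214), and the difference between the peptide groups did not (limma, adjusted p = 0.139). Trbv31, which lies beyond the beta constant segments, had 2.07, 2.34 and 2.76 TPM in control, 1.10, 0 and 2.07 TPM with OVA, and 0, 0 and 0.740 TPM with OVA plus citraconate. It passed the test only for OVA plus citraconate against control (limma, adjusted p = 0.00552). Trbv29 ranged from 0 to 2.04 TPM and Trbv19 from 0 to 2.55 TPM over the 9 libraries, with all groups overlapping and no call in any comparison. Trbv1 was the other beta segment lower with OVA (mean 1.15 in control and 0.122 TPM with OVA; limma, adjusted p = 0.0365).

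Alpha segments other than the pair summed to 367, 401 and 371 TPM in control, 114, 61.8 and 126 TPM with OVA, and 262, 218 and 284 TPM with OVA plus citraconate. OVA replicate 2 was the lowest library, also in the number of variable segments above 0, which was 55 there, 74 and 75 in the other OVA libraries, 99 to 100 in control and 89 to 93 with OVA plus citraconate. The number above 0 follows depth as well as use, and variable-segment reads were fewest with OVA (2614 to 3852, beside 3786 to 5092 in control and 6016 to 8145 with OVA plus citraconate).

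Trav19 was the highest alpha segment after the pair in control. It had 36.4, 37.7 and 35.6 TPM in control, 7.55, 5.95 and 6.48 TPM with OVA, and 22.0, 15.9 and 21.1 TPM with OVA plus citraconate. It fell with OVA by 2.30 ± 0.12 on the log2 scale (limma, adjusted p = 1.43e-07), and none of the groups overlapped. Trav16 had 32.1, 34.6 and 37.1 TPM, then 15.3, 13.4 and 18.9 TPM, then 22.2, 20.5 and 24.3 TPM. Its fall with OVA was 1.09 ± 0.12 (limma, adjusted p = 1.48e-05), close to that of the pair. Its rise with citraconate was smaller, at 0.48 ± 0.12 (limma, adjusted p = 0.00551), or 0.35 relative to the median gene. In a fit of recovered reads with voom weights this rise did not pass (adjusted p = 0.0616).

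Trav6-7-dv9, which can also serve delta chains, had 31.5, 33.2 and 22.8 TPM in control, 8.49, 1.65 and 8.01 TPM with OVA, and 17.6, 16.9 and 18.4 TPM with OVA plus citraconate. Trav21-dv12 had 16.3, 29.9 and 27.7 TPM, then 5.53, 4.77 and 8.03 TPM, then 19.4, 17.8 and 16.8 TPM. Both were lower in every OVA library than in any other library. Their log2 changes with OVA were -2.29 ± 0.40 (limma, adjusted p = 0.000464) and -1.83 ± 0.22 (limma, adjusted p = 3.14e-05).

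**Figure D4:**
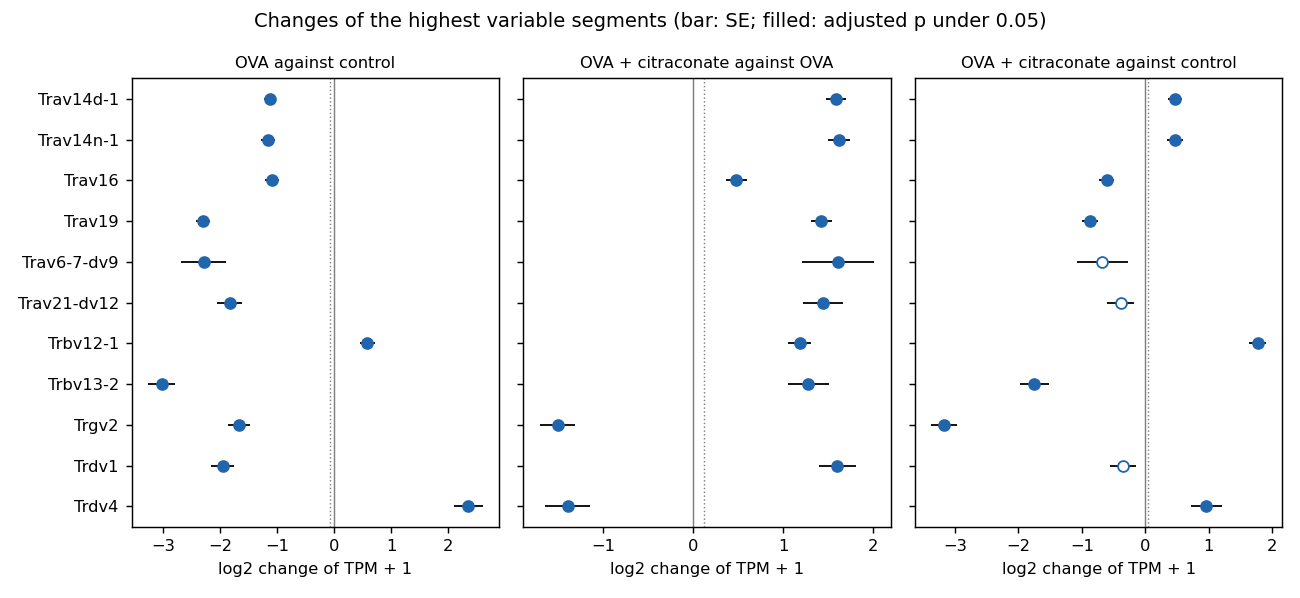
Log2 change of TPM + 1 (point) with its SE (bar) for 11 variable segments in the 3 comparisons, filled where the limma adjusted p was under 0.05, with a dotted line at the median of all tested genes. With OVA, 2 of the 11 rose (Trbv12-1 and Trdv4) and 9 fell, and with OVA plus citraconate against OVA, 2 (Trgv2 and Trdv4) were lower and 9 higher.

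Trav14-1, which differs from the pair by the 6 capitals in the printed stretch, fell further than the pair. It had 17.8, 18.0 and 18.4 TPM in control, 1.15, 0 and 0.725 TPM with OVA, and 7.51, 2.96 and 6.20 TPM with OVA plus citraconate. Its log2 change with OVA was -3.62 ± 0.31 (limma, adjusted p = 2.96e-06), beside -1.12 for Trav14d-1. Trav14-2 had means of 5.33, 1.04 and 4.20 TPM, and Trav14-3 of 12.2, 3.83 and 4.08 TPM, in control, OVA and OVA plus citraconate. The members of 1 family thus stood at different levels, and Trav14-3, unlike Trav14-1 and Trav14-2, was not called between the peptide groups (limma, adjusted p = 0.850).

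Apart from the pair and the d and n copies, 30 of 38 tested alpha segments were lower with OVA, beside 39.8% of all tested genes, and 8 were not called. Some of the 38, such as Trav10 and Trav3-4, reached the minimum of 1 TPM only outside the OVA group, so that minimum partly sets this count. Among those lower, control and OVA means were 15.1 and 4.58 TPM for Trav4-4-dv10, 14.4 and 1.98 for Trav3-3, 11.8 and 3.38 for Trav13-4-dv7, 9.37 and 0.871 for Trav5-4, 6.52 and 2.02 for Trav12-3, 6.44 and 1.96 for Trav13-1, and 6.02 and 1.76 for Trav15-1-dv6-1. They were 5.15 and 0.907 TPM for Trav13-2, 5.07 and 1.05 for Trav12-2, 4.80 and 0.997 for Trav17, 4.15 and 2.33 for Trav6-6, 3.99 and 0.974 for Trav15-2-dv6-2, 3.89 and 0.638 for Trav9-2, and 3.74 and 1.82 for Trav4-3. Trav7-5 (2.87 and 0.297 TPM), Trav10 (2.36 and 0.377) and Trav3-4 (1.77 and 0.337) were lower too. Segments were named here because they were called with the groups apart, so that they do not overlap follows from the choice. In some of the 38 the control and OVA libraries overlapped, among them Trav9-4 (6.44 and 1.40 TPM) and Trav7-6 (5.24 and 2.49 TPM, limma, adjusted p = 0.195), named after their values were seen. Trav23 had a control mean of 2.08 TPM and was listed at 0 in the 3 OVA libraries.

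The tested d and n copies other than the pair, segments of the duplicated stretches of the locus, numbered 23. Of these, 14 were lower with OVA, beside 39.8% of all tested genes, and 9 were not called. Nearly all of the 23 reached the minimum of 1 TPM only outside the OVA group. The count is therefore partly set by that minimum and is not directly comparable with the share of all genes. Among those lower, control and OVA means were 4.83 and 0.378 TPM for Trav15n-2, 4.06 and 0.513 for Trav13d-3, 3.88 and 0.149 for Trav11d, 3.29 and 0.370 for Trav15d-2-dv6d-2, 3.28 and 1.15 for Trav6d-6, 3.06 and 0.604 for Trav16n, 2.92 and 0.277 for Trav6d-7 and 2.67 and 0.249 for Trav15d-1-dv6d-1. Trav7n-6 had a control mean of 2.08 TPM and was listed at 0 in all OVA libraries. Many copies are so alike that the deposited values cannot be assigned to 1 of them with certainty. Of the 128 alpha segments, 43 share every stretch of 50 bases of their variable exon with another variable segment and 78 share 50% or more, while Trav19 and Trav21-dv12 share none.

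A pair of segments classed as pseudogenes, which cannot make a working chain, followed the same course. Trav8-2 had means of 9.88, 3.55 and 11.1 TPM, and Trav13-3 of 7.64, 1.77 and 6.97 TPM, in control, OVA and OVA plus citraconate. Both were lower with OVA (limma, adjusted p = 0.00761 and 0.00646) and higher with OVA plus citraconate than with OVA (limma, adjusted p = 0.00647 and 0.0151). Trav13-3 shares 88.1% of its stretches of 50 bases with Trav13d-3, which is not classed as a pseudogene. Trav8-2 shares 43.2% of them with other variable segments, so reads cannot be assigned to either pseudogene with certainty. In all, 7 of the 34 pseudogenes were above 0 in some library.

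Between the peptide groups, 33 of 63 tested alpha segments were higher with OVA plus citraconate (52.4%, beside 37.8% of all tested genes). Trav7-5 went from a mean of 0.297 TPM with OVA to 5.05 TPM, Trav3-3 from 1.98 to 9.99, Trav5-4 from 0.871 to 6.47, Trav6d-6 from 1.15 to 6.32 and Trav3-4 from 0.337 to 2.88 TPM. Relative to the median gene these are log2 changes of 2.03, 2.02, 1.85, 1.79 and 1.39. Trav12-1 went against them: its means were 4.19, 4.81 and 2.61 TPM in control, OVA and OVA plus citraconate. It did not pass the test with OVA (limma, adjusted p = 0.506) and was lower with OVA plus citraconate than with OVA (limma, adjusted p = 0.0425). Trav9n-3 had means of 0.524, 1.06 and 0.284 TPM, at the level of a few reads. It reached 1 TPM only with OVA, and Trav2 only with OVA plus citraconate, so the minimum for testing partly sets these counts.

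Compared with control, the OVA plus citraconate cells had lower levels of 14 of 63 tested alpha segments (22.2%, beside 26.3% of all tested genes), among them Trav19 (log2 change -0.87; limma, adjusted p = 0.000158), Trav16 (-0.61; 0.00127), Trav14-1 (-1.61; 0.00128) and Trav4-4-dv10 (-0.75; 0.0137). The pair alone among alpha segments was called higher than in control. Trav6-7-dv9 and Trav21-dv12 were not called in that comparison (limma, adjusted p = 0.168 and 0.149), though the first passed in a fit of the 2 groups alone or without OVA replicate 2 (-0.68), and the second without control replicate 1 (-0.65).

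**Figure D5:**
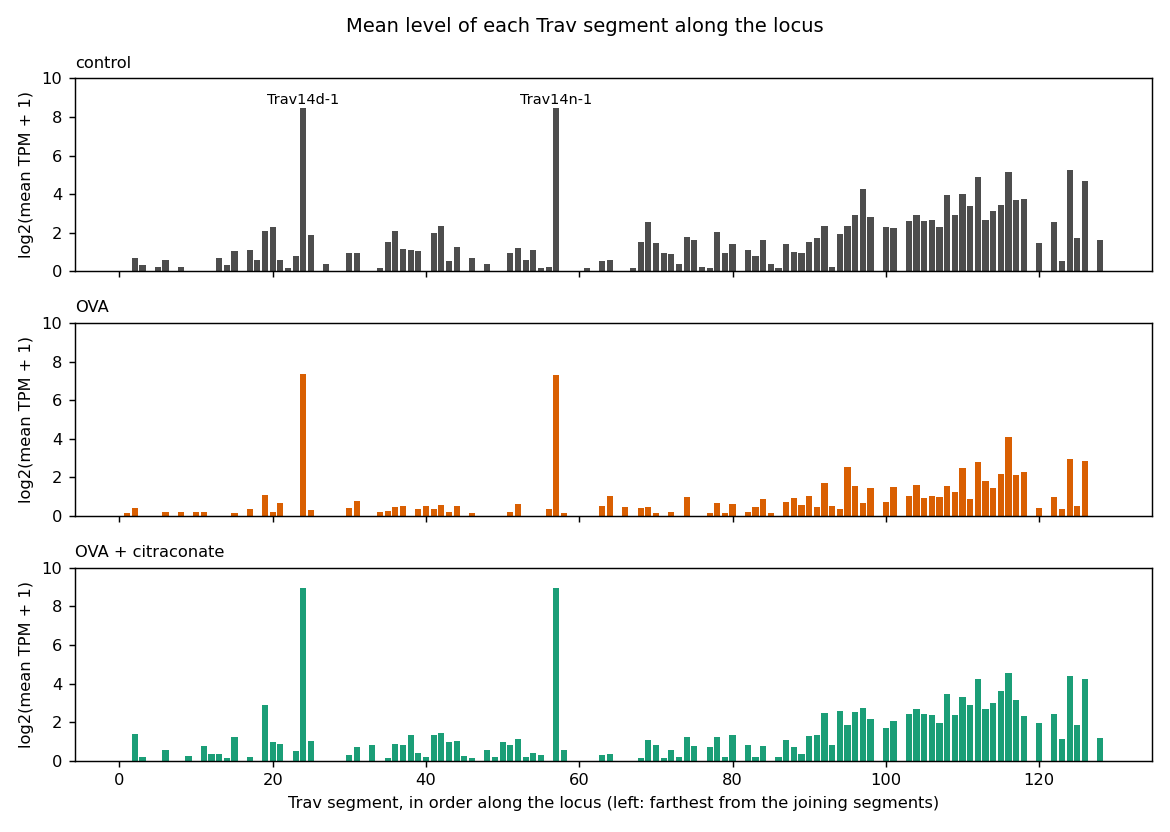
Log2 of mean TPM + 1 for each of the 128 alpha segments in their order along the locus in GENCODE M21 (left, farthest from the joining segments; right, nearest), 1 panel per group. The identical Trav14d-1 and Trav14n-1 stand at positions 24 and 57, and the other high segments lie toward the right in all groups.

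Place along the alpha locus went with level. Rearrangement at this locus is known to begin with variable segments near the joining segments and to reach farther ones in later rounds. When the 126 alpha segments other than the pair were divided in order into 3 stretches of 42, a division made after the values were seen, the stretch nearest the joining segments (Trav7-4 to Trav23) held 81.3% to 83.2% of their TPM in control. It held 83.1% to 86.9% with OVA and 82.0% to 84.6% with OVA plus citraconate, and the ranges of the groups overlapped. All 10 segments of the 126 with a group mean of 10 TPM lay in it. It holds no d or n copy, whereas the farthest stretch (Trav1 to Trav8d-2) holds 34 and the middle one (Trav16d-dv11 to Trav6-4) 37, so place and copy number cannot be told apart.

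Trgv2, the gamma segment in the table under the current naming, was present in all libraries and fell in both steps. It had 95.4, 142.6 and 85.8 TPM in control, 33.4, 36.6 and 28 TPM with OVA, and 8.48, 13.4 and 11 TPM with OVA plus citraconate. The 3 groups did not overlap. Its log2 change was -1.67 ± 0.20 with OVA (limma, adjusted p = 2.98e-05). Between the peptide groups it was -1.50 ± 0.20 (limma, adjusted p = 0.000139), or -1.63 relative to the median gene. Against control it was -3.17 ± 0.20 (limma, adjusted p = 7.43e-07), so that the mean with OVA plus citraconate was 0.102 of the control mean. It was the highest variable segment after Trbv12-1 and the pair in control. Trgv2 shares 5.43% of its stretches of 50 bases with Tcrg-V1, which is not in the table. Reads of those stretches cannot be assigned to Trgv2 with certainty.

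Tcrg-C2, the constant segment next to Trgv2 in the gamma locus, had means of 111 ± 9.0, 25.8 ± 2.61 and 10.8 ± 1.79 TPM. The ratio of Trgv2 to Tcrg-C2 was 0.820 to 1.18 in control, 1.08 to 1.44 with OVA and 0.776 to 1.23 with OVA plus citraconate, with all groups overlapping. Variable and constant segment thus fell together. Of the 7 genes listed as markers of gamma-delta T cells all were above 0, 4 of them being constant segments, and their sum was 208 to 263 TPM in control, 59.4 to 80.0 with OVA and 32.0 to 38.3 with OVA plus citraconate. Among the others, Sox13 had means of 0.893, 0.288 and 0.152 TPM and Il23r of 0.131, 0.178 and 1.05 TPM. The part of gamma-delta cells in these changes was not tested.

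Among delta segments 1 rose with OVA and the other 4 tested fell. Trdv1 had 37.9, 44.1 and 33.8 TPM in control, 7.27, 7.41 and 14.2 TPM with OVA, and 30.1, 28 and 31.7 TPM with OVA plus citraconate. It followed the alpha segments, whose locus it shares, with a log2 change of -1.95 ± 0.20 with OVA (limma, adjusted p = 1.22e-05). Between the peptide groups the change was 1.48 ± 0.20 relative to the median gene (limma on the unshifted change, adjusted p = 0.000117). Trdv4 went the opposite way. It had 3.11, 3.31 and 5.85 TPM in control, 19.0, 24.3 and 31.3 TPM with OVA, and 9.0, 11.4 and 6.27 TPM with OVA plus citraconate, and the groups did not overlap. These values rest on 8 to 96 reads per library.

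Trdv4 was thus 6.07 times as high with OVA as in control (log2 change 2.36 ± 0.25; limma, adjusted p = 1.40e-05). Between the peptide groups its change relative to the median gene was -1.52 ± 0.25 (limma on the unshifted change, adjusted p = 0.000932). Against control its change was 0.96 ± 0.25 (limma, adjusted p = 0.00746). It took 4.90% to 10.9% of delta-segment TPM in control, 59.0% to 71.5% with OVA and 12.7% to 24.7% with OVA plus citraconate. Trdv1 took 63.3% to 69.6%, 21.9% to 26.7% and 60.7% to 63.9% in the same order. In GENCODE M21 Trdv4 overlaps Gm30275, a gene not in the table, and no source used here says whether the counting used the strand, so reads of the 2 cannot be told apart.

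Natural killer markers moved in the same order as Trdv4: all 3 on the list were above 0 and their sum was 3.69 to 5.24 TPM in control, 223 to 331 with OVA and 88.7 to 128 with OVA plus citraconate. Most of that sum was Eomes, with means of 3.35, 178 and 82.8 TPM in the same order of groups. Ncr1 was at 0 in every control library and had means of 26.3 and 4.07 TPM in the peptide groups. In RNA of bulk cells, natural killer cells and T cells expressing these genes cannot be told apart. The part of either in the change of Trdv4 was not tested. Trdv2-2 had means of 12.8 ± 3.64, 3.73 ± 2.70 and 7.32 ± 2.17 TPM and overlaps Gm43647, and Trdv5, which had means of 1.78, 0.686 and 1.36 TPM, overlaps the delta constant segment Trdc. Trdc itself had means of 25.7 ± 1.56, 11.4 ± 0.335 and 12.8 ± 0.670 TPM.

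Most other genes of the receptor were lower with OVA as well. Of the 7 tested constant segments, 6 were lower with OVA, beside 39.8% of all tested genes (the exception was Tcrg-C4, limma, adjusted p = 0.271), and 3 were higher and 3 lower with OVA plus citraconate against OVA, beside 37.8% and 21.2% of all genes. The higher ones were Trac, Trbc1 and Trbc2, and the lower ones the gamma constant segments Tcrg-C1, Tcrg-C2 and Tcrg-C4. Of 6 partners of the receptor on the cell surface (Cd3d, Cd3e, Cd3g, Cd247, Cd8a and Cd8b1), all 6 fell with OVA and all 6 were higher with OVA plus citraconate than with OVA, against the same shares of all genes. Cd3e, a signalling chain of the receptor complex, had means of 1405 ± 23.0, 513 ± 136 and 1281 ± 84.5 TPM. Cd8a and Cd8b1, which define CD8+ T cells, had means of 217, 142 and 325 TPM and of 601, 177 and 347 TPM. The labelled cell type was thus matched by its markers, and Cd4 had means of 2.62, 1.27 and 1.02 TPM.

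Summed markers of CD4 T cells and of B cells were highest in control, as were the sums of the minor alpha and beta segments. The 4 markers of CD4 T cells summed to 53.9 to 60.8 TPM in control, 19.6 to 21.4 with OVA and 18.3 to 19.9 with OVA plus citraconate. Most of this sum was Zbtb7b (means of 28.2, 17.9 and 16.2 TPM) and Cd40lg (25.6, 1.31 and 1.87 TPM). Foxp3 had means of 0.0931, 0.114 and 0.0139 TPM and did not fall with OVA. The 8 B cell markers, all above 0 somewhere, summed to 225 to 260 TPM, 58.0 to 88.4 and 55.3 to 87.9 TPM, mostly from Ighm and Igkc. Of the 4 tested with OVA against control, 3 were lower and 1 higher: Ighm had means of 214, 28.4 and 74.4 TPM, and Igkc, the higher one, of 16.9, 42.1 and 0.727 TPM. Ms4a1, a surface marker of B cells, had means of 0.165 and 0.0240 TPM in control and OVA and was at 0 with OVA plus citraconate. The part of such cells in the fall of the minor segments was not tested.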

How the data were processed

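The authors deposited 1 table of TPM for 9 libraries. Its name says FPKM, but the sum of each column is 1000000. The GRCm39 genome, Salmon and Trim Galore 0.5.0 were used, per the submitters' processing notes. The annotation, and how reads matching several segments were handled, are not stated in any source used here. Names, order and sequences were taken from GENCODE M21, an annotation of the older GRCm38 build, so no coordinates are given.

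Values were changed to log2(TPM + 1), and the 11971 genes whose mean reached 1 TPM in some group were fitted with limma 3.58.1 (lmFit, eBayes with a trend; R 4.3.3) over all 9 libraries. P-values are two-sided and adjusted with the Benjamini-Hochberg method over all tested genes of a comparison, with 0.05 as the threshold. The share of Trbv12-1 among beta segments was compared with exact permutation tests, and the other shares and ratios were described without a test. Whole reads were worked back from the table for all 16734 genes above 0 in at least 2 libraries (100%, within 0.0001 reads or 3e-08 of the count). They are the smallest whole numbers in proportion to a gene's values, and gave depth and 1 alternative fit with voom weights. Both steps were tested on simulated data.

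The segments whose values are given are the 6 highest of Trav and of Trbv, the highest Trgv and Trdv, and those called in either peptide comparison with groups apart and a higher mean of at least 2 TPM. A few others (Trbv1, Trav9n-3, Trav9-4, Trav7-6, Trav11, Trdv5) were added after their values were seen, and some listed markers are not reported here. The segments, lists and rules were chosen with earlier results of these data known.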

Additional observations from a re-analysis of the deposited data

How the results depend on the processing

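The counts of called segments stayed within 1.5 times under all alternatives tried: a pseudocount of 0.1, no filter, scaling by the median of ratios, only the 2 groups compared, recovered reads with voom weights, and leaving out each library. With OVA against control 56 segments were called, 49 with voom weights and 52 to 59 without 1 library. Between the peptide groups 40 were called, 27 with voom weights and 32 to 41 without 1 library. For OVA plus citraconate against control 23 were called, 18 with a pseudocount of 0.1 or with voom weights, 29 with only the 2 groups compared and 21 to 29 without 1 library. With the replicate block the counts were 61, 41 and 27. Deviations of libraries with the same replicate number correlated from -0.012 to 0.304, not all above 0.1. Between the peptide groups they correlated from 0.048 to 0.304, and those of libraries with different numbers from -0.254 to 0.168. These values cannot exclude an effect shared by libraries of the same number.

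The share of Trbv12-1 among beta segments differed between OVA and control by 6.50 points with Trbv12-2 added to it, 6.60 in recovered reads and 6.50 to 7.77 without 1 library. Between the peptide groups the difference was 0.0517 (without OVA plus citraconate replicate 1) to 0.220 points (without OVA replicate 1). No direction reversed among the 11 segments whose changes are plotted. Trav6-7-dv9 was called lower with OVA plus citraconate than in control (-0.68) in a fit of those 2 groups alone (limma, adjusted p = 0.00133) or without OVA replicate 2, Trdv1 (-0.35) in that fit (limma, adjusted p = 0.0109) or without OVA replicate 3, and Trav21-dv12 (-0.65) without control replicate 1. Depth limits segments near 1 TPM, which rest on a few reads.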

Other observations

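All 84 joining and diversity segments in the table were listed at 0 in the 9 libraries. Of 5 gamma variable segments under older symbols (Tcrg-V3 to Tcrg-V7), outside the rule used here, 4 were above 0, and their sum was 0.507 to 4.25 TPM in control, 1.02 to 3.39 with OVA and 0.391 to 2.69 with OVA plus citraconate. Trav11, the alpha segment of invariant natural killer T cells, was above 0 in 1 library of each group (0.476, 1.26 and 2.25 TPM). It shares 99.6% of its stretches of 50 bases with Trav11d, so reads cannot be assigned between them with certainty, and Trav11d had means of 3.88, 0.149 and 0.982 TPM. Of the other markers of those cells, Zbtb16 had means of 0.125, 0.169 and 0.0834 TPM and Klrb1c, also a natural killer cell marker, of 0.913, 57.0 and 16.0 TPM. Among thymocyte markers Rag1 was at 0 in all libraries, and Dntt, which adds bases at the junctions of receptor segments, had means of 4.88 ± 0.909 and 0.0484 TPM in control and OVA and was at 0 in the citraconate libraries.

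Of 11 factors known to bind enhancers of the receptor loci, 8 were lower and 1 higher with OVA, beside 39.8% and 32.1% of all tested genes, and 7 were higher with OVA plus citraconate than with OVA, beside 37.8% (limma, adjusted p under 0.05). Tcf7, a factor of naive and memory T cells, had means of 61 ± 19.1, 3.24 ± 2.32 and 60.6 ± 24.2 TPM, Bcl11b 37.7 ± 3.31, 5.04 ± 2.11 and 13.3 ± 1.58 TPM, and Ets1 157 ± 7.35, 46.8 ± 8.0 and 81.0 ± 10.3 TPM in control, OVA and OVA plus citraconate. Myb was the factor that rose with OVA, from 22.8 ± 4.19 to 42.0 ± 3.43 TPM (limma, adjusted p = 0.000280).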
